A study of Mus musculus with 8 samples.

Results

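The transcripts described here are those of 10 subunits of protein phosphatase 2A (PP2A), among the 55401 genes listed for mouse kidney. They were picked out by gene symbol and had been selected on earlier results of the same comparison, since the kidney FPKM of rFGF4-treated and vehicle-treated mice was known when the set was proposed. Their differences between the groups are therefore given as a description and not as a test. The set holds both catalytic subunits, Ppp2ca and Ppp2cb, and both scaffolds, Ppp2r1a and Ppp2r1b. It also holds Ppp2r2a and Ppp2r2d of the B55 family of regulatory subunits, and Ppp2r5a, Ppp2r5c, Ppp2r5d and Ppp2r5e of the B56 family. All 10 reached an FPKM of at least 0.5 in all 8 libraries and were tested. Ppp2r2b, Ppp2r2c and Ppp2r5b of the same families are not in the set and are treated below with the other subunits.

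Kidney RNA was sequenced from 8 diabetic mice, 1 library each, 4 given rFGF4 (mice 1, 2, 3 and 5) and 4 given vehicle (mice 2, 3, 4 and 5). rFGF4 is a recombinant human fibroblast growth factor 4, shortened at its N-terminal end, which the paper describes as not driving cell division. The comparison asks which kidney transcripts differ after it was given. The labels give the genotype of the control mice as a db/db model, mice that lack a working leptin receptor, whereas the paper describes the sequenced animals as made diabetic with streptozotocin, and the files do not settle which is right. The vehicle was PBS. The study's methods give rFGF4 to diabetic mice by intraperitoneal injection on alternate days, at 1 mg/kg over 8 weeks, without naming the sequenced mice. The treatment schemes of the study start male mice of both models at 12 weeks of age, although its methods time the streptozotocin model differently, and no age is given for the sequenced mice by name. Both groups carried the diabetic background, and no non-diabetic mouse was analysed here. The values are FPKM, read fragments divided by transcript length and by the mapped fragments of the library, so levels of different genes can be compared per length. No counts were at hand, so depth and counting error are unknown.

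PP2A is one of the main serine and threonine phosphatases of the cell. A scaffold made of repeated helices holds the catalytic subunit and 1 of many regulatory subunits, and the regulatory subunit sets the substrates and the place in the cell. PP2A is known for removing phosphate from kinases such as AKT and AMPK, and the free catalytic subunit is unstable without its partners. The annotation in the deposited table assigns all 10 subunits to the AMPK and PI3K-Akt signaling pathways, to sphingolipid signaling and to mRNA surveillance. It assigns only the catalytic, scaffold and B55 members, 6 in all, to the Hippo pathway and to tight junctions. It assigns the catalytic and scaffold members, 4 in all, to TGF-beta signaling, and 0 of the 10 to FoxO signaling.

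The catalytic proteins encoded by Ppp2ca and Ppp2cb are almost the same, so the coding ends of both genes are shown to let a reader see where their reads differ. These are the last 60 coding bases, stop codon included, of GENCODE M21 transcripts on GRCm38, which encode the tail that is methylated during assembly of the enzyme. Capitals mark the 8 positions at which they differ. Ppp2ca lies on the plus strand at chr11:52121915-52121974 and Ppp2cb on the plus strand at chr8:33619135-33619194, each stretch within 1 exon.
Ppp2ca: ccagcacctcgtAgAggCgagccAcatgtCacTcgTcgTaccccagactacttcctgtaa
Ppp2cb: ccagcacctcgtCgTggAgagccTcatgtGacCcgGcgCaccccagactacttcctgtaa
Over the 930 coding bases of each gene, 81.7% were identical, and the longest run without a difference was 25 bases. For the other paralogous pairs the longest shared run was between 14 and 25 coding bases. In none of the 9 pairs did annotated transcripts share a stretch of 50 bases.

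Overlap with other genes limits some of the values. Ppp2ca (chr11:52098681-52127778, plus strand) shares 42.5% of its exonic bases with other genes, mostly with the antisense gene 9430098F02Rik, for which no value was analysed here. Ppp2r1b (chr9:50845301-50894229, plus strand) shares 22.2% of its exonic bases with Sik2 on the opposite strand. Whether the libraries or the counting kept the strand is not given in the sources used here, so reads from both strands cannot be told apart. For Ppp2r2d the overlap was 3.3%, with Mapk1ip1, and for Ppp2r5d it was 3.56%, with Mea1. Of the stretches of 50 bases in Ppp2r2a (chr14:67014056-67072444, minus strand), 6.07% also occur in another gene, chiefly Gm19221, whose FPKM was at most 0.485 in any mouse. For Ppp2r5a (chr1:191351975-191403272, minus strand) this share was 20.6%, spread over many genes. Ppp2cb (chr8:33599625-33619441) and Ppp2r5e (chr12:75450881-75596245) shared none.

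Windows around annotated transcription starts were at hand from RefSeq on GRCm38.p6 for 7 of the 10 genes, 10 windows in all. The cyclic AMP response element TGACGTCA, which reads the same on both strands, was in 3 of these windows, those of Ppp2ca and Ppp2r2d. It was in 1.79% of the 32851 windows of the same length. GGGCGG, the core of a GC box, was found on either strand in 7 of the 10 windows, from 6 genes, and in 35.7% of all windows. GC content was between 57.3% and 75.7% in 9 of the 10 windows and 44.3% in the other, from Ppp2r5c, against a median of 52.7% over all windows, and the part of base composition in these matches was not tested. These are matches of letters only, and binding was not measured.

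Across all 8 kidneys the scaffold Ppp2r1a was the most abundant member and the other scaffold, Ppp2r1b, the least. Mean FPKM was 46.3 ± 8.24 (SD, n = 8) for Ppp2r1a and 5.48 ± 1.10 (SD, n = 8) for Ppp2r1b, an 8.44-fold range. The catalytic subunits followed the leading scaffold, Ppp2cb at 32.0 ± 7.95 FPKM and Ppp2ca at 24.2 ± 2.70 FPKM (SD, n = 8 each). The B56 members came next, Ppp2r5a at 13.3 ± 0.916, Ppp2r5d at 11.4 ± 1.06 and Ppp2r5e at 11.1 ± 2.30 FPKM. Ppp2r5c, at 7.35 ± 1.09 FPKM, lay beside the B55 members Ppp2r2a, at 6.82 ± 2.87, and Ppp2r2d, at 6.14 ± 0.787. Of the neighbours in this order, Ppp2r5d and Ppp2r5e, Ppp2r5c and Ppp2r2a, and Ppp2r2a and Ppp2r2d differed by less than the SD of their within-mouse difference. Ppp2r1a lay above 93.8% of the tested genes in mean FPKM, and Ppp2r1b above 56.8%. Summed FPKM of the 2 scaffold genes was 0.923 ± 0.0422 (SD, n = 8) of that of the 2 catalytic genes, with a range from 0.835 to 0.979.

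**Figure D1:**
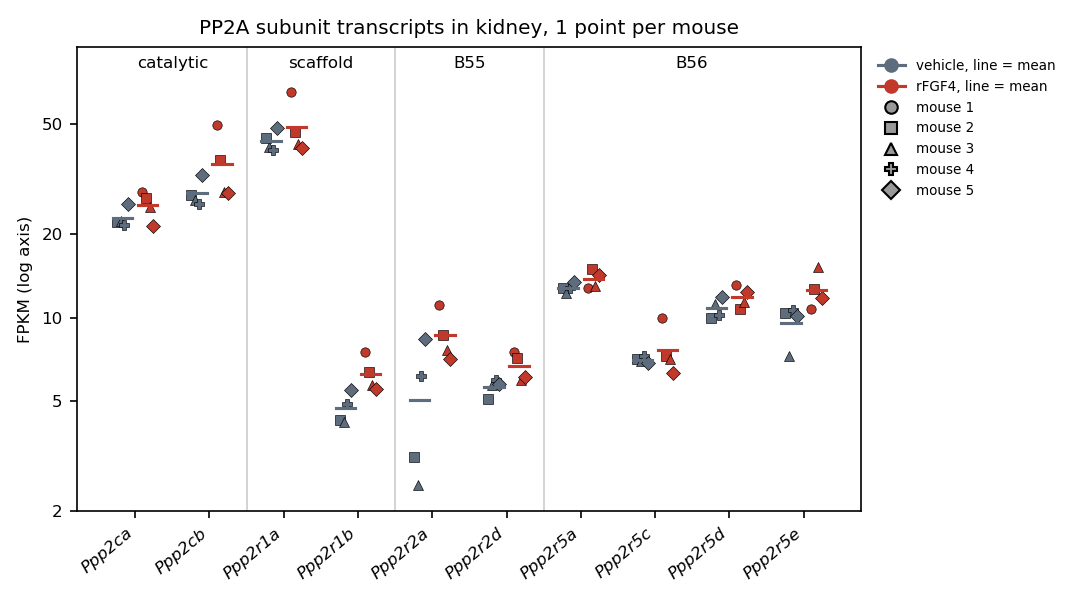
FPKM of the 10 PP2A subunits (log axis) in each of 4 vehicle-treated mice (grey) and 4 rFGF4-treated mice (red), with 1 point per mouse, the point shape giving the mouse number and lines the group means. Ppp2r1a runs from 40.2 to 65.3 FPKM, while Ppp2r2a in vehicle-treated mice spreads from 2.49 to 8.33 FPKM.

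Which paralogue had the higher FPKM was tested within each mouse, a question that does not use the treatment. The test reads only whether a difference recurs over the mice. A bias of 1 gene that recurs in every library, through its length, overlap or shared sequence, cannot be told apart from abundance. Ppp2ca has 7490 exonic bases, 42.5% of them overlapping other genes, and Ppp2cb has 1469 with no overlap. Of the stretches of 50 bases in Ppp2r5a, 20.6% occur in other genes. The difference in log2(FPKM + 1) between 2 paralogues was compared with 0 over the 8 mice by a two-sided exact permutation test of its signs, for 9 pairs with Benjamini-Hochberg adjustment over them. The smallest p that 8 mice allow is 0.00781, or 0.0141 after adjustment here. In 7 of the 9 pairs the adjusted p was below 0.05.

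Ppp2cb exceeded Ppp2ca in 8 of 8 mice, by 0.36 ± 0.19 on the log2 scale (SD, n = 8, exact permutation test, adjusted p = 0.0141). The ratio of their FPKM was between 1.14 and 1.74, lowest in rFGF4 mouse 3 and highest in rFGF4 mouse 1. Ppp2r1a exceeded Ppp2r1b in 8 of 8 mice by 2.87 ± 0.16 (SD, n = 8, exact permutation test, adjusted p = 0.0141), a ratio of 7.402 to 10.5. Ppp2r1a is the scaffold found in most PP2A enzymes of the body, and Ppp2r1b is its less abundant relative. The B55 members Ppp2r2a and Ppp2r2d did not separate, at a difference of 0.03 ± 0.52 (SD, n = 8, exact permutation test, adjusted p = 0.859). Within a mouse it ranged from -0.94 in vehicle mouse 3 to 0.51 in rFGF4 mouse 1. It was above 0 in every rFGF4-treated mouse and in vehicle mice 4 and 5, and below 0 in vehicle mice 2 and 3. The 8 mice thus pool a mean of 0.32 in the rFGF4 group and -0.25 in the vehicle group.

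B56 subunits bind short docking motifs in their substrates, and of the 4 in the set Ppp2r5c was the lowest in every mouse. Ppp2r5b, outside the set and not compared here, was below Ppp2r5c in vehicle mouse 2 (6.57 against 7.07 FPKM) and vehicle mouse 4 (7.00 against 7.24 FPKM). Ppp2r5a exceeded Ppp2r5c by 0.78 ± 0.21, Ppp2r5d by 0.57 ± 0.16 and Ppp2r5e by 0.52 ± 0.33 on the log2 scale (SD, n = 8, exact permutation test, adjusted p = 0.0141 each). Ppp2r5a exceeded Ppp2r5d by 0.21 ± 0.14, in 7 of 8 mice (SD, n = 8, exact permutation test, adjusted p = 0.0201). It exceeded Ppp2r5e by 0.26 ± 0.25, also in 7 of 8 mice (SD, n = 8, exact permutation test, adjusted p = 0.0201). The exceptions were rFGF4 mouse 1 for Ppp2r5d and rFGF4 mouse 3 for Ppp2r5e. Ppp2r5d and Ppp2r5e did not separate, with a difference of 0.05 ± 0.30 that was above 0 in 4 of 8 mice (SD, n = 8, exact permutation test, adjusted p = 0.747). Without rFGF4 mouse 1 and vehicle mouse 5, 6 of the 9 pairs had an adjusted p below 0.05, each at 0.0469 in the exact permutation test, the smallest value reached with 6 mice. The pair that no longer did was Ppp2r5a and Ppp2r5e, at a difference of 0.24 (exact permutation test, adjusted p = 0.0804).

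**Figure D2:**
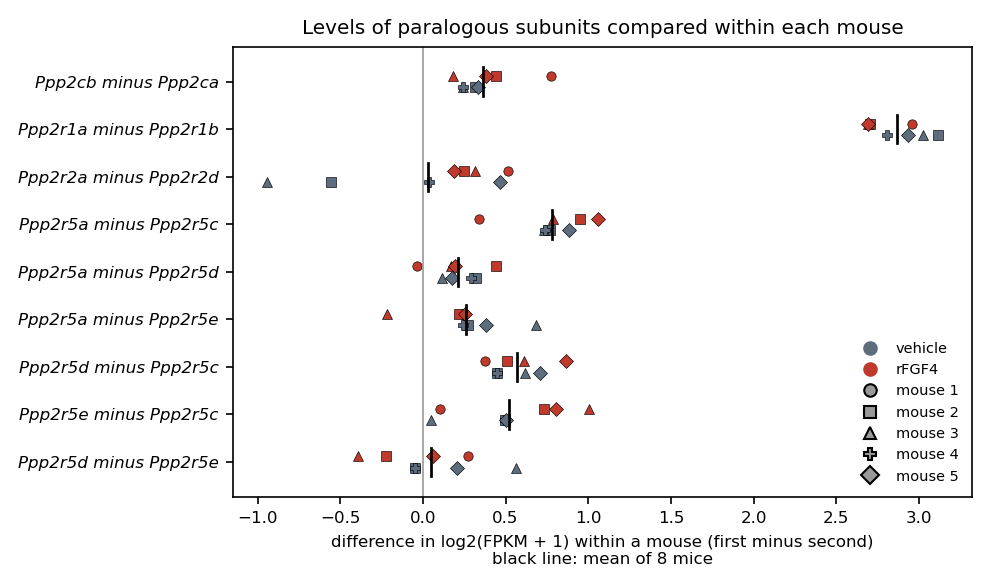
Difference in log2(FPKM + 1) between paralogous PP2A subunits within each mouse (first gene minus second, horizontal axis), with 1 point per mouse coloured by group and a black line at the mean of 8 mice. All points of Ppp2r1a minus Ppp2r1b lie between 2.69 and 3.12, while those of Ppp2r2a minus Ppp2r2d lie on both sides of 0.

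The libraries of rFGF4 mouse 1 and vehicle mouse 5 stood apart from the other 6, and the group differences of the members and the levels of paralogues are also given without them. On the first principal component, which held 54.4% of the variance, they lay at -64.6 and -60.1 and the rest between -16 and 44.3. Their median FPKM ratios to the typical library were 1.27 and 1.08, against 0.906 to 1.06 in the others. Mitochondrial transcripts made up 19.0% of summed FPKM in rFGF4 mouse 1 and 24.4% in vehicle mouse 5. In the other mice the share was 24.7% to 36.0% with rFGF4 and 34.2% to 38.4% with vehicle. All 4 macrophage markers were detected, with a summed FPKM of 378 in rFGF4 mouse 1 and 408 in vehicle mouse 5, against 31.8 to 173 in the other rFGF4-treated mice and 23.8 to 91.4 in the other vehicle-treated mice. The 5 markers of the proximal tubule, the main epithelium of kidney cortex, summed to 263 FPKM in rFGF4 mouse 1 and to between 690 and 1194 elsewhere, and 5 B and plasma cell markers summed to 22902 FPKM in vehicle mouse 5, to 2715 in rFGF4 mouse 1 and to between 23.9 and 1450 in the rest. The 3 red blood cell markers summed to between 71.0 and 1502 FPKM in rFGF4-treated and between 652 and 2454 FPKM in vehicle-treated mice, with 3 of the 4 vehicle-treated mice above every rFGF4-treated mouse. Kidney markers were present in every library, and the 3 adipocyte markers summed to at most 0.186 FPKM. In these bulk samples fewer cells of a type and less RNA per cell cannot be told apart. The labels name no batch.

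All 10 members had a higher mean in rFGF4-treated mice as deposited, 8 at a common median ratio and 10 when scaled to the non-mitochondrial sum. As deposited, 67.1% of the 15150 tested genes were higher, and the direction belongs to the comparison on which the members were chosen. Their median log2 fold change was 0.17, and that of all tested genes 0.09, both on the log2(FPKM + 1) scale of a limma fit, which understates changes of low values. The threshold used by the study (fold change at or above 1.5, or at or below 0.67, and p before adjustment under 0.05) was passed by 1 member, Ppp2r2a, and by 1.09% of tested genes in the same direction. An unadjusted p under 0.05 was found for 3 members, Ppp2r1b, Ppp2r2a and Ppp2r5e, and for 4.62% of tested genes. This count of members was 0 without rFGF4 mouse 2, vehicle mouse 2 or vehicle mouse 3, 1 without rFGF4 mouse 1, rFGF4 mouse 3 or vehicle mouse 4, and 2 without either mouse numbered 5. At a common median ratio it was 2, without Ppp2r5e. Adjusted over all tested genes with the Benjamini-Hochberg method, limma gave 0 members an adjusted p under 0.05 (0.918 to 0.945) and 0 of the 15150 genes (0%), of which 700 had an unadjusted p under 0.05. edgeR, which the study's methods name, needs counts and was not run.

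The catalytic subunits, which carry the phosphatase activity, lay in overlapping ranges. Ppp2ca was at 28.5, 26.9, 25.0 and 21.5 FPKM in rFGF4 mice 1, 2, 3 and 5 and at 22.1, 22.2, 21.7 and 25.7 FPKM in vehicle mice 2, 3, 4 and 5. The lowest value of all was in rFGF4 mouse 5, and vehicle mouse 5 stood above its group. The means were 25.5 ± 3.04 and 22.9 ± 1.88 FPKM (SD, n = 4 each), a log2 fold change of 0.14 (standard error 0.12), which was 0.09 without rFGF4 mouse 1 and 0.22 without rFGF4 mouse 5. Ppp2cb was at 49.5, 37.0, 28.5 and 28.3 FPKM in rFGF4-treated mice and at 27.8, 26.5, 25.8 and 32.7 FPKM in vehicle-treated mice. Mice 1 and 2 of the rFGF4 group were above every vehicle-treated mouse and mice 3 and 5 were not. The means were 35.8 ± 9.98 and 28.2 ± 3.09 FPKM (SD, n = 4 each), a log2 fold change of 0.30 (standard error 0.19), and without rFGF4 mouse 1 it was 0.14 (standard error 0.14). For Ppp2cb it was 0.18 at a common median ratio and 0.40 when scaled to the non-mitochondrial sum. Ppp2cb made up 57.8% ± 4.22 of the catalytic FPKM in rFGF4-treated and 55.1% ± 0.836 in vehicle-treated mice (SD, n = 4 each), a difference smaller than the larger SD.

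Of the scaffolds, Ppp2r1a overlapped between the groups and Ppp2r1b did not. Ppp2r1a was at 65.3, 47.0, 42.4 and 41.0 FPKM in rFGF4-treated mice and at 44.7, 41.2, 40.2 and 48.4 FPKM in vehicle-treated mice. Only rFGF4 mouse 1 lay above all vehicle-treated mice, and without it the log2 fold change went from 0.14 (standard error 0.16) to -0.0033, while without rFGF4 mouse 5 it was 0.22. Ppp2r1b was at 7.52, 6.35, 5.70 and 5.499 FPKM in rFGF4-treated mice and at 4.26, 4.19, 4.88 and 5.45 FPKM in vehicle-treated mice. The lowest rFGF4 value, in mouse 5, lay just above the highest vehicle value, also in a mouse numbered 5. The means were 6.27 ± 0.910 and 4.69 ± 0.594 FPKM (SD, n = 4 each), a log2 fold change of 0.35 (standard error 0.14).

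In all, 2 of the 10 members, Ppp2r1b and Ppp2r5e, had every rFGF4-treated mouse above every vehicle-treated mouse, as did 2.66% of tested genes. The antisense neighbour of Ppp2r1b, Sik2, a kinase of the AMPK-related family, was at 0.998 to 1.48 FPKM in rFGF4-treated and 0.790 to 0.947 FPKM in vehicle-treated mice, so its groups did not overlap either. Its part in the Ppp2r1b value was not tested. Ppp2r1a made up 88.5% ± 0.768 of scaffold FPKM in rFGF4-treated and 90.3% ± 0.940 in vehicle-treated mice (SD, n = 4 each), and the ranges overlapped through rFGF4 mouse 1 at 89.7%.

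Relative to its mean, Ppp2r2a varied most over the 8 mice. It is the B55 subunit known for directing PP2A to AKT and to substrates of mitotic exit. Ppp2r2a was at 11.1, 8.67, 7.62 and 7.06 FPKM in rFGF4-treated mice and at 3.13, 2.49, 6.14 and 8.33 FPKM in vehicle-treated mice. Vehicle mice 2 and 3 were low, whereas vehicle mouse 5 lay within the rFGF4 range, so the groups overlapped. The means were 8.62 ± 1.80 and 5.02 ± 2.72 FPKM (SD, n = 4 each), a log2 fold change of 0.77 (standard error 0.32, limma, adjusted p = 0.918). It no longer passed the study's threshold without rFGF4 mouse 1, 2 or 3 (log2 fold change 0.65, 0.76 and 0.82) or without vehicle mouse 2 or 3 (0.63 and 0.55). It still passed without rFGF4 mouse 5, vehicle mouse 4 or vehicle mouse 5 (0.85, 0.89 and 1.02). Without rFGF4 mouse 1 and vehicle mouse 5 together, an analysis added after seeing the data, it was 0.90 (standard error 0.27).

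Ppp2r2d, the B55 relative of Ppp2r2a, was at 7.49, 7.13, 5.92 and 6.09 FPKM in rFGF4-treated mice and at 5.08, 5.70, 5.97 and 5.76 FPKM in vehicle-treated mice. The groups overlapped, with the 3 highest vehicle values close to those of rFGF4 mice 3 and 5, and the log2 fold change was 0.20 (standard error 0.12). At a common median ratio it was 0.09, and scaled to the non-mitochondrial sum 0.29. The share of Ppp2r2a in the FPKM of both B55 members does not depend on the scaling of a library. It was 59.8%, 54.9%, 56.3% and 53.7% in rFGF4-treated mice and 38.1%, 30.3%, 50.7% and 59.1% in vehicle-treated mice. The rFGF4-treated mice lay close together, at 56.2% ± 2.63, and the vehicle-treated mice did not, at 44.6% ± 12.8 (SD, n = 4 each). The groups overlapped through vehicle mouse 5.

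Among the B56 members, Ppp2r5e was at 10.7, 12.7, 15.2 and 11.8 FPKM in rFGF4-treated mice and at 10.4, 7.25, 10.6 and 10.1 FPKM in vehicle-treated mice. Vehicle mouse 3 was low and rFGF4 mouse 3 high, while rFGF4 mouse 1 lay next to the vehicle range. The means were 12.6 ± 1.93 and 9.59 ± 1.58 FPKM (SD, n = 4 each), a log2 fold change of 0.37 (standard error 0.16), which was 0.25 without vehicle mouse 3 and 0.28 without rFGF4 mouse 3. The other 3 overlapped between the groups. Ppp2r5a, a mainly cytoplasmic B56 subunit, lay between 12.8 and 14.98 FPKM in rFGF4-treated and between 12.2 and 13.5 FPKM in vehicle-treated mice, and its log2 fold change was 0.09 (standard error 0.10), or 0.05 without rFGF4 mouse 2. Ppp2r5d, the member mutated in a human developmental disorder, lay between 10.8 and 13.2 and between 10.0 and 11.8 FPKM, a log2 fold change of 0.13 (standard error 0.11), or 0.08 without rFGF4 mouse 1. The log2 fold change of Ppp2r5d was 0.0079 at a common median ratio and 0.22 when scaled to the non-mitochondrial sum.

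Ppp2r5c, the B56 member linked to p53 dephosphorylation, was at 7.03 ± 0.165 FPKM in vehicle-treated mice as deposited and at 7.39 ± 0.739 at a common median ratio (SD, n = 4 each). In rFGF4-treated mice it was at 9.93, 7.27, 7.11 and 6.33 FPKM. Mouse 1 was high and mouse 5 below all vehicle-treated mice, and the log2 fold change was 0.09 (standard error 0.14), which was -0.026 without rFGF4 mouse 1 and 0.17 without rFGF4 mouse 5. Summed over the 4 B56 members, FPKM was 46.6, 45.7, 46.7 and 44.7 in rFGF4-treated mice and 40.2, 37.7, 40.9 and 42.3 in vehicle-treated mice, which did not overlap. This sum holds only genes chosen on this comparison and leaves out the B56 relative Ppp2r5b. Ppp2r5b was at 13.6, 10.1, 8.06 and 7.25 FPKM in rFGF4-treated and 6.57, 8.61, 7.00 and 11.8 FPKM in vehicle-treated mice. A sum with it was not analysed, nor a share of tested genes for such sums. The sums of catalytic, scaffold and B55 members overlapped.

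The levels of most members followed the library as a whole. Of the 10, 8 had their highest value in rFGF4 mouse 1, the exceptions being Ppp2r5a in rFGF4 mouse 2 and Ppp2r5e in rFGF4 mouse 3, and 7 had their highest vehicle value in vehicle mouse 5. Over the 8 mice, the correlation of log2(FPKM + 1) with the log2 median ratio of the library was 0.97 for Ppp2cb, 0.94 for Ppp2r1a, 0.91 for Ppp2ca and 0.84 for Ppp2r1b. It was 0.15 for Ppp2r5a and 0.06 for Ppp2r5e (Pearson, n = 8 mice that share their library with the ratio). Of the 45 pairs of members, 10 had a correlation above 0.8 and 3 one below 0, with a median of 0.6.

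When every library was brought to the same median ratio, 8 of the 10 members had a higher mean in rFGF4-treated mice, and Ppp2r5a and Ppp2r5c had log2 fold changes of -0.026 and -0.025. The median of the members was then 0.05, and that of all tested genes -0.01. Scaling each library to its non-mitochondrial sum moved the values the other way, to a median of 0.27 for the members, with all 10 higher, and 0.16 for all tested genes. Ppp2ca was then at 0.24, Ppp2r1b at 0.43 and Ppp2r2a at 0.86. At the common median ratio, Ppp2ca averaged 24.3 ± 1.77 and 23.9 ± 0.344 (SD, n = 4 each). Scaled Ppp2r1b remained apart, at 5.94, 6.002, 5.95 and 5.89 in rFGF4-treated mice and at 4.70, 4.45, 5.38 and 5.04 in vehicle-treated mice, and was the 1 member whose groups did not overlap, as did 1.7% of tested genes in that direction at this scaling. Its rFGF4 values differed by little, with a mean of 5.94 ± 0.0478 against 4.89 ± 0.406 (SD, n = 4 each), and its log2 fold change was 0.24 (standard error 0.08).

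Scaled Ppp2r2a was at 8.13 ± 0.514 in rFGF4-treated and 5.14 ± 2.47 in vehicle-treated mice (SD, n = 4 each) and still overlapped through vehicle mouse 5 at 7.71, with a log2 fold change of 0.66 (standard error 0.28). Scaled Ppp2r5e overlapped, at 8.47 in rFGF4 mouse 1 against up to 11.7 in vehicle mouse 4. The scaled B56 sum overlapped as well, at 44.2 ± 5.47 and 42.2 ± 3.02, whereas the scaled B55 sum did not, at 14.5 ± 0.421 and 11.04 ± 2.496 (SD, n = 4 each). The median correlation between members fell to 0.026, with 1 pair above 0.8, Ppp2r1b and Ppp2r2a at 0.89, and 20 pairs below 0. The mitochondrial, macrophage and proximal tubule values given above differ in the same libraries, the mitochondrial and red blood cell values were higher in most vehicle-treated than in most rFGF4-treated mice, and their part in these levels was not tested.

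**Figure D3:**
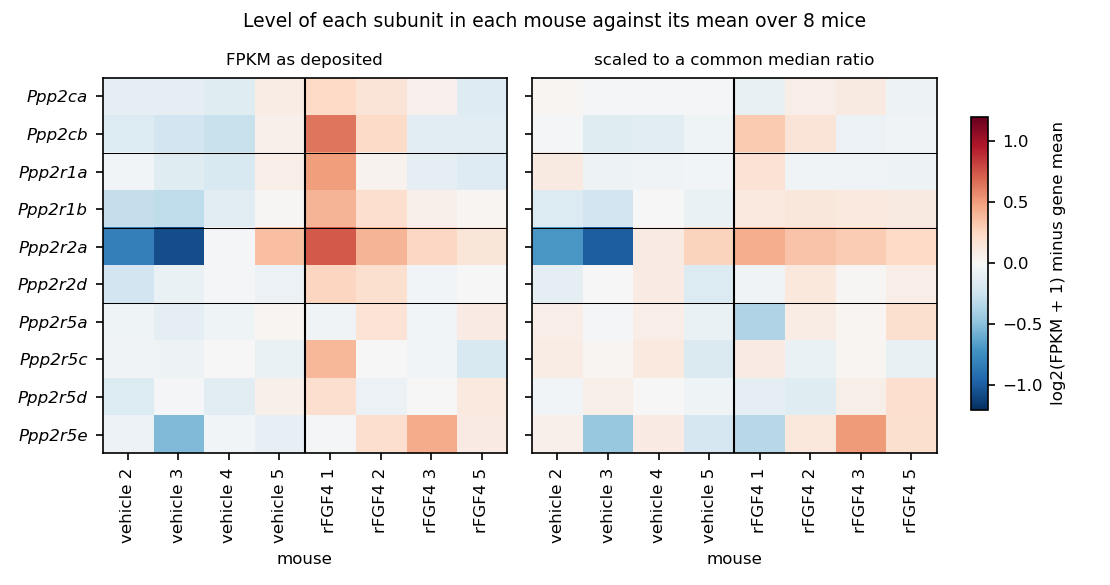
Deviation of log2(FPKM + 1) from the mean over 8 mice (colour) for each PP2A subunit (rows) in each mouse (columns, vehicle left and rFGF4 right of the line), as deposited and after scaling to a common median ratio. As deposited, 8 of the 10 members are highest in rFGF4 mouse 1; after scaling, the low Ppp2r2a of vehicle mice 2 and 3 remains.

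Without rFGF4 mouse 1, 8 of the 10 members had a higher mean in the rFGF4 group, with a median log2 fold change of 0.13 against 0.01 for all tested genes. Ppp2r1a and Ppp2r5c, at -0.0033 and -0.026, were the members not above 0. Without rFGF4 mouse 1 and vehicle mouse 5, 9 of the 10 were higher, with Ppp2r5c at -0.037, and the medians were 0.16 for the members and 0.07 for all tested genes. Ppp2r1b stood at 0.33 (standard error 0.11) and Ppp2r5e at 0.46 (standard error 0.17) without both mice. Ppp2cb was then at 0.21, Ppp2r2d at 0.16, Ppp2r5a at 0.15, Ppp2ca at 0.14, Ppp2r5d at 0.12 and Ppp2r1a at 0.05, with standard errors of 0.10 to 0.13. The class sums and shares were not recomputed without these mice.

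**Figure D4:**
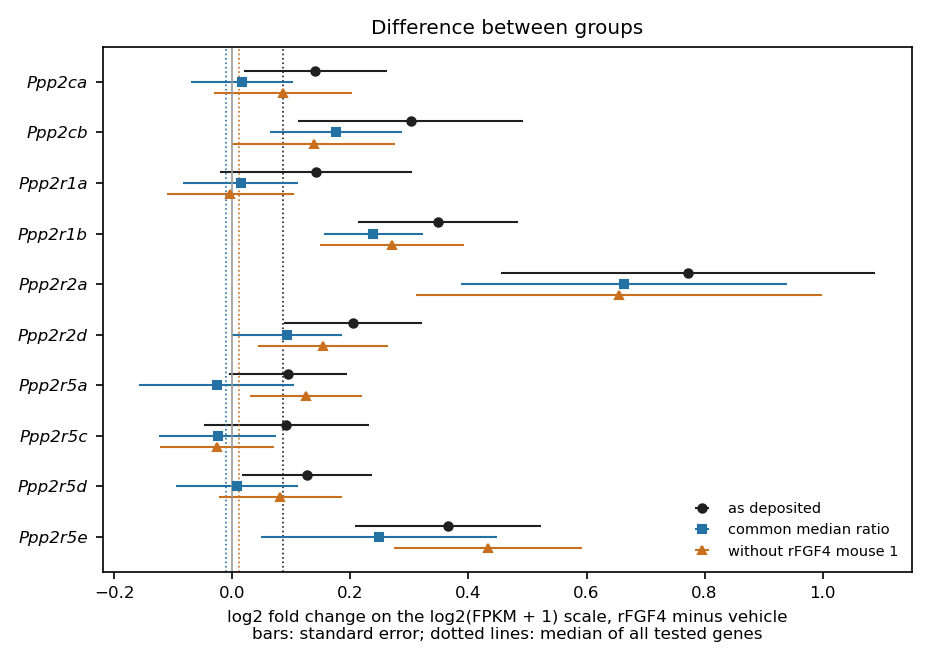
Log2 fold change on the log2(FPKM + 1) scale, rFGF4 minus vehicle (horizontal axis, bars are standard errors), for each PP2A subunit as deposited, at a common median ratio, and without rFGF4 mouse 1, with dotted lines at the median of all tested genes in each. Ppp2r2a lies at 0.77, 0.66 and 0.65 and Ppp2r1b at 0.35, 0.24 and 0.27, while Ppp2r1a goes from 0.14 to 0.01 and -0.0033.

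The genes whose level over the 8 mice was most like that of Ppp2r2a were Adam10, Gm9512 and Map3k7, with Pearson correlations of 0.98 each among 13199 genes with a mean of at least 1 FPKM. A correlation above 0.9 with Ppp2r2a was found for 143 genes. Those most like Ppp2ca were Krr1, Dync1i2 and Cxcl14, at 0.992 to 0.995, and 927 genes exceeded 0.9. These correlations rest on the same 8 libraries, 2 of which stood apart.

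Partners, regulators and relatives of PP2A were read from 5 lists of 41 genes, 36 of them tested. Of these, 30 had a higher and 6 a lower mean in rFGF4-treated mice, with 21 higher at a common median ratio and 22 without rFGF4 mouse 1, and 0 passed the study's threshold, which 1.53% of tested genes passed in either direction. limma gave 0 of them an adjusted p under 0.05 and 1 an unadjusted p under 0.05, which 4.62% of all tested genes had. Among the other PP2A subunits, 7 of the 8 tested were higher on average, with a median log2 fold change of 0.16 that was 0.06 at a common median ratio and 0.04 without rFGF4 mouse 1. The striatins Strn3 and Strn4, regulatory subunits of the STRIPAK complex, were at 0.26 (standard error 0.15) and 0.16 (standard error 0.14). The B55 relative Ppp2r2b was at 0.662 ± 0.0516 FPKM in rFGF4-treated and 0.813 ± 0.391 FPKM in vehicle-treated mice, and Ppp2r2c did not reach the minimum for testing. The B56 relative Ppp2r5b was at 9.76 ± 2.83 and 8.48 ± 2.35 FPKM (SD, n = 4 each).

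The inhibitors of PP2A were the 1 list whose median as deposited did not lie above 0, with 3 of 7 tested members higher and a median of -0.03, which was -0.11 at a common median ratio and 0.07 when libraries were scaled to their non-mitochondrial sum. Anp32a, an acidic nuclear inhibitor, was at 0.16 (standard error 0.11) and Fam122a, an inhibitor of B55 enzymes, at -0.11 (standard error 0.11). All 5 factors of assembly, methylation and stability were higher on average, with a median of 0.12, and 3 of the 5 at a common median ratio. Ppme1, which removes the methyl group from the catalytic tail, was at 0.19 (standard error 0.11), and Ptpa, which activates the enzyme, at 0.17 (standard error 0.15). Of the 8 STRIPAK partners tested, 8 were higher on average, with a median of 0.16. At a common median ratio 5 of the 8 were higher, with a median of 0.04, and without rFGF4 mouse 1 also 5, with a median of 0.02. Stk24, a kinase of the complex, was at 0.22 (standard error 0.19).

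Of 8 catalytic subunits of related phosphatases, 7 were higher on average, with a median of 0.15, and 5 at a common median ratio. Ppp1ca, a catalytic subunit of protein phosphatase 1, was at 65.1 ± 13.01 FPKM in rFGF4-treated and 46.6 ± 4.32 FPKM in vehicle-treated mice (SD, n = 4 each). Its log2 fold change was 0.45 (standard error 0.16). It was the 1 gene of the 36 tested in the lists with an unadjusted p under 0.05, against 4.62% of all tested genes. Its groups did not overlap, as was so for 2.66% of all tested genes in that direction. Ppp3ca, a calcineurin catalytic subunit, was at -0.35 (standard error 0.18). The median of the 10 members, 0.17, lay beside medians of -0.03 to 0.16 for these lists. Without rFGF4 mouse 1 the members were at 0.13 and the lists between -0.05 and 0.13.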

How the data were processed

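Kidney RNA of 8 mice, 4 per group by the sample labels, was sequenced as paired-end poly(A) libraries. According to the submitters' processing notes, which give no roles, Bowtie 0.12.2, HISAT2 2.0, StringTie 1.3.0 and the build mm8 were used; 99.5% of the identifiers were found in GENCODE M21 (GRCm38), from which positions and transcript sequences were taken here. The FPKM values were deposited by the authors after assembly with StringTie, without counts, so depth is unknown. The deposited columns of fold change, log2 fold change, p-value, q-value and regulation hold the authors' own edgeR comparison and were not used.

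Members and gene lists were chosen with earlier results of these data known. Genes with at least 0.5 FPKM in 4 or more libraries (15150) were fitted on the log2(FPKM + 1) scale by limma (version 3.58.1, R 4.3.3) with its trend option, and p was adjusted by the Benjamini-Hochberg method. The procedure was tested on simulated data. Named were all members, any listed gene past the threshold and otherwise the 2 with the smallest p per list, and the 3 genes most like Ppp2r2a and Ppp2ca; the result of 1 listed gene is not reported here. Listed genes named beyond this rule (Ppp2r2b, Ppp2r2c, Ppp2r5b) were added as the other B55 and B56 relatives after their values were seen. Paralogues were compared with Python 3.11.15, and figures drawn with matplotlib 3.10.9. The alternatives were a pseudocount of 0.1, no filter, scaling to a common median ratio or to the non-mitochondrial sum, array weights, a fold change of 2, a block for shared mouse numbers and each mouse left out. Nothing says that the mice of a group were housed or treated apart, so p-values measure only the spread between these samples.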

Additional observations from a re-analysis of the deposited data

Results flagged for a closer look

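Among 40 groups of 4 mice, from the 10 PP2A subunits and 10 genes of the lists of its partners, regulators and relatives, 2 held a mouse far from the rest, where chance gives about 1 in 20 groups. Vehicle mouse 5 stood above the other vehicle-treated mice for Ppp2ca, with a gap of 0.847 of the range of the group on the log2(FPKM + 1) scale, the limit being 0.829. Vehicle mouse 3 stood below the other vehicle-treated mice for Ppp2r5e, with a gap of 0.868 of the range. After scaling to a common median ratio, Ppp2ca in vehicle mouse 5 was at 23.8, within the range of the other 3 vehicle-treated mice, whereas Ppp2r5e in vehicle mouse 3 was still the lowest, at 7.71.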

How the results depend on the processing

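The number of genes past the study's threshold was 232 and lay between 188 and 580 with 1 mouse left out (580 without rFGF4 mouse 5 and 434 without vehicle mouse 5). It was 496 with array weights and 54 at a fold change of at least 2. The 1 member past the threshold, Ppp2r2a, became 0 with no filter on low values (its log2 fold change stayed at 0.77), with a fold change of at least 2, and without rFGF4 mouse 1, 2 or 3 or vehicle mouse 2 or 3, so that leaving out 1 mouse gave 0 to 1. Directions turned for members near 0. At a common median ratio Ppp2r5a and Ppp2r5c were at -0.026 and -0.025, and without both that mouse and vehicle mouse 5 Ppp2r5c was at -0.037. With 1 mouse left out, Ppp2r1a lay between -0.0033 and 0.22 and Ppp2r5c between -0.026 and 0.17, both lowest without rFGF4 mouse 1. The level of Ppp2r2a minus Ppp2r2d was -0.25 in vehicle-treated mice alone, and between -0.036 and 0.17 with 1 mouse left out, below 0 without rFGF4 mouse 1, rFGF4 mouse 3 or vehicle mouse 5. Ppp2r5d minus Ppp2r5e was -0.070 in rFGF4-treated mice alone, and between -0.024 (without vehicle mouse 3) and 0.11 with 1 mouse left out. Without rFGF4 mouse 1 and vehicle mouse 5 these differences were -0.12 and -0.014, and 6 paralogue pairs separated. The number was 7 with a pseudocount of 0.1 and with any 1 mouse left out. The cause of these changes was not tested.

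The groups share the mouse numbers 2, 3 and 5, but deviations of same-numbered mice were correlated at -0.23, -0.15 and -0.39, so the numbers were not taken to pair the mice. With a replicate block over the 6 mice that share a number, 263 genes and 0 members passed the threshold (Ppp2r2a at 0.77), the median of the members was 0.11, and Ppp2r1a and Ppp2r5c were at -0.040 and -0.014. No mouse correlated best with the one of its own number.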
